A study of Rattus norvegicus with 36 samples.

Results

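Myh13, the gene for the extraocular myosin heavy chain, was followed in rat muscle from birth to postnatal day 45. It was chosen as every probe set that the platform annotation gives to the single symbol Myh13, which found 1 probe set, AF075250_at, and so 1 of the 4736 genes with a single symbol. The probe set passed the filter on low values, as did 3889 genes in all. Extraocular muscle (EOM), which moves the eye, was set beside a leg sample of gastrocnemius and soleus at postnatal days 0, 7, 14, 21, 28 and 45. Each of the 12 groups held 3 Affymetrix RG-U34A arrays of total RNA, and the labels name no treatment or altered gene. Strain, sex and pooling of animals are not given in the labels, which also do not say that arrays of a group came from separate animals. The p-values therefore measure the spread between these samples, which may be technical.

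Myosin heavy chains are the motor proteins of the thick filament. They bind actin and hydrolyse ATP, and the chain that a fibre makes largely sets how fast it shortens. Skeletal muscle makes embryonic and neonatal chains first and replaces most of them after birth with adult fast or slow chains. Myh13 encodes a fast chain found in extraocular muscle and laryngeal muscle and hardly in limb muscle. Because the RNA came from whole muscle, fewer fibres with the transcript and less transcript per fibre cannot be told apart.

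In the GRCr8 assembly of RefSeq, Myh13 lies on the plus strand of chromosome 10 from 52511773 to 52567951, a span of 56179 bases. It is the last of 6 sarcomeric myosin heavy chain genes in a row on that strand, after Myh3, Myh2, Myh1, Myh4 and Myh8. Myh8, its nearest neighbour, ends 19668 bases before Myh13 begins. Myh3 encodes the embryonic chain, Myh8 the neonatal chain, and Myh2, Myh1 and Myh4 the adult fast chains of types IIa, IIx and IIb. The cluster is shown because its genes took different courses after birth in the results that follow.

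The 250 bases before the Myh13 start, at chr10:52511523-52511772, are printed first, with capitals for matches to the E-box letters CANNTG, the core bound by myogenic basic helix-loop-helix factors.
Myh13: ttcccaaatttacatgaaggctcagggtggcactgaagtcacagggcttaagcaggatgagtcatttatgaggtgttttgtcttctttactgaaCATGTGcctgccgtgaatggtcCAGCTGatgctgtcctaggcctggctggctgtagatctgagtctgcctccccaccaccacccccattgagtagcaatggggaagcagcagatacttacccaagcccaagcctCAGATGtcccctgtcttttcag
The 3 matches begin 156, 134 and 22 bases before the start. CANNTG reads the same on both strands as a pattern, and 65.5% of 33469 RefSeq windows of 250 bases hold at least 1 match, so its presence is common. The letters TATAAA, searched on both strands, are absent from the Myh13 window and present in 12.9% of all windows. The MEF2 site (2.96% of windows) and the CArG box (1.5%) were also absent from these bases. An ATG with an open frame after it lies 21 bases past the annotated start, and the 3 bases just before that start are CAG, as in 2.49% of windows.

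For comparison, the last 100 bases before the transcript starts that RefSeq annotates for the neighbours are given with TATAAA in capitals, in cluster order from Myh3 at chr10:52269085-52269184 through Myh2 at chr10:52355639-52355738, Myh1 at chr10:52384812-52384911 and Myh4 at chr10:52422048-52422147 to Myh8 at chr10:52462409-52462508.
Myh3: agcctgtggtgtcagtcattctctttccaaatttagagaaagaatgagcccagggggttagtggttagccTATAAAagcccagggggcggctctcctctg
Myh2: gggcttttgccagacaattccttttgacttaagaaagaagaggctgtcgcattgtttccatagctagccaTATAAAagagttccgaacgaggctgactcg
Myh1: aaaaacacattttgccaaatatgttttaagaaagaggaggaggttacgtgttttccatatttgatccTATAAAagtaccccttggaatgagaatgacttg
Myh4: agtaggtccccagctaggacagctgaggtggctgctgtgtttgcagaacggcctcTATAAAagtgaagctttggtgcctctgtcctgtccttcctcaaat
Myh8: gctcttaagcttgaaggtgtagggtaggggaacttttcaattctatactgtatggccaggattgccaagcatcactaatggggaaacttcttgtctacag
The Myh1 gene span begins at 52384810, so the Myh1 transcript start used here and the bases printed before it lie inside that span. TATAAA begins 30 bases before the start in Myh3 and Myh2, 33 in Myh1 and 45 in Myh4. Myh8, like Myh13, has none in its window and also ends in CAG. The genes thus differ in these letters at their annotated starts, and a match is a description of the sequence only. Whether Myh13 and Myh8 transcripts begin at these annotated starts was not tested, so the bases printed for them need not be promoter sequence.

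The arrays had been scaled by the submitters to a common level, and array medians ran from 418.7 to 652.2 intensity units. Of 10 skeletal muscle marker genes on the array, 7 (Acta1, Tnnc2, Tnni2, Pygm, Des, Eno3 and Casq1) lay above the floor of 100.9 intensity units on every array. Ckm, muscle creatine kinase, was listed at or below the floor on 21 of 36 arrays, Atp2a1 on 4 and Tnnt3 on 1, so a low value in this table can occur for a gene that muscle uses. The EOM samples of days 0 and 7 also carried signal of epithelial genes, keratins among them, that were listed as markers of lacrimal and Harderian glands. The 7 measured genes of that list summed to between 22600 and 30250 intensity units at day 0, between 7489 and 16330 at day 7 and between 2082 and 2387 at day 14. Which epithelium gave this signal was not determined. In the leg samples of those 3 ages the same sums lay between 1951 and 4183. Genes listed as adipocyte markers moved the other way: the summed intensity of 5 measured genes in EOM lay between 11910 and 15760 at day 0, 19740 and 21740 at day 7 and 27350 and 28530 at day 14. All 4 tested members had a rising EOM slope over these ages by the test, as did 7.3% of all probe sets. Plin1, also listed, was at the floor on 27 of 36 arrays and was not tested. In leg that sum lay between 21600 and 29540 at day 0 and between 28370 and 29440 at day 14. The 10 skeletal muscle markers in EOM summed to between 93990 and 113500 at day 0, 95410 and 119200 at day 7 and 115600 and 157200 at day 14. In leg their sum lay between 106400 and 170300 at day 0 and between 103300 and 150700 at day 14. Signal of the gland list thus fell over the interval in which Myh13 rose in EOM. That of the adipocyte list rose, and the muscle marker sum was higher at day 14 than at day 0. The part of these shifts in the rise of Myh13 was not tested.

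At birth Myh13 was low in both muscles. The 3 EOM arrays of day 0 read 373, 180.3 and 346.2 intensity units. The 3 leg arrays of day 0 read 305, 374.8 and 377.5. The ranges overlapped, and the EOM mean was lower than the leg mean by a log2 difference of -0.30 ± 0.60 (SE), with a 95% interval of -1.52 to 0.92 and a limma adjusted p of 0.914. At that age 3.93% of all probe sets were higher in EOM and 2.4% lower.

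In EOM, Myh13 rose 8.51-fold between birth and day 7. The EOM arrays of day 7 read 3051.9, 2919.5 and 1612.5 intensity units, all above every EOM array of birth. The log2 difference was 3.09 ± 0.60 (SE; 95% interval 1.87 to 4.31; limma adjusted p = 0.00274), the 2nd largest rise of 6672 probe sets. Over that interval 1.23% of probe sets rose in EOM by the test, and 7.25% had all 3 later arrays above all 3 earlier ones. With arrays scaled to the skeletal muscle markers instead, the rise was 2.78 and missed the threshold (adjusted p = 0.0742). With the deposited scaling, day 7 was thus the first sampled age at which the gene stood above birth in EOM, and no age between days 0 and 7 was sampled.

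From day 7 to day 14 Myh13 rose again, by 7.98-fold. The EOM arrays of day 14 read 22058, 16394 and 20175.2 intensity units, none of which came near the day 7 values. The log2 difference was 3.00 ± 0.60 (SE; 95% interval 1.78 to 4.22; limma adjusted p = 0.00133), the 9th largest rise between these ages. In that interval 2.4% of probe sets rose by the test and 9.64% had ranges that did not overlap in that direction. On the log2 scale the steps of the first and the second week were thus 3.09 and 3.00.

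A straight line through the EOM means of days 0, 7 and 14 rose by 0.435 ± 0.043 log2 units per day (SE; 95% interval 0.348 to 0.522; limma adjusted p = 7.93e-09), a doubling every 2.3 days with an interval of 1.9 to 2.9 days. That slope was the 3rd steepest of 6672 probe sets, of which 7.3% had a rising slope past the test. The leg slope over the same ages was 0.049 ± 0.043 log2 units per day (adjusted p = 0.544), where 12.9% of probe sets had a slope past the test. The slopes differed by 0.386 ± 0.060 log2 units per day (SE; 95% interval 0.263 to 0.509; limma adjusted p = 0.000197), the largest such difference on the array, where 0.944% of probe sets had a slope steeper in EOM by the test.

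**Figure D1:**
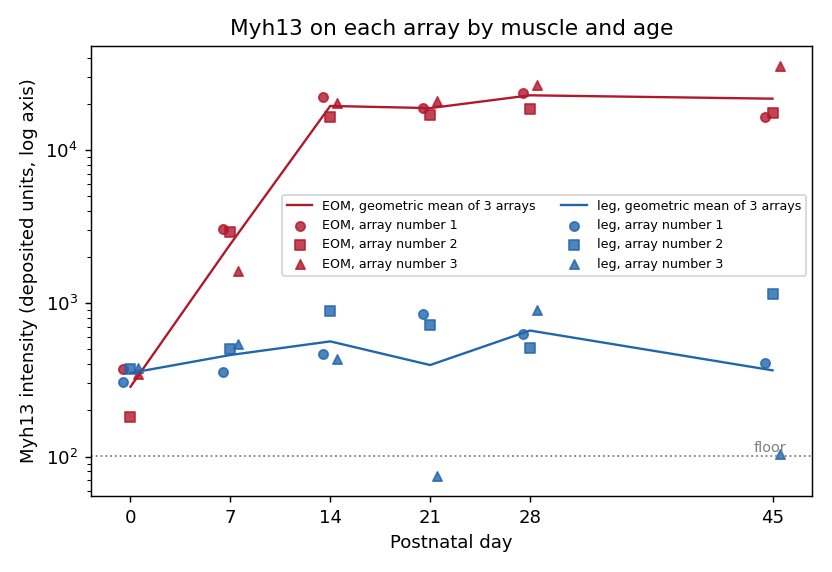
Myh13 intensity (log axis, deposited units) on each of the 36 arrays against postnatal day. Red marks are EOM and blue marks leg, the marker shape gives the array number, lines join the geometric means of 3 arrays, and the dotted line is the floor of 100.9. EOM climbed from 180.3 to 373 units at birth to at least 16394 from day 14 on, while the highest leg array read 1146.7.

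After day 14 the level in EOM stayed high. The EOM arrays of day 21 read 18867.9, 16808.7 and 20849.4 intensity units. At day 28 they read 23609.7, 18655 and 26747.4. At day 45 they read 16469.3, 17500.7 and 35126.2, with the array numbered 3 well above the other two. The 4 groups overlapped each other, and none of the 3 steps between neighbouring ages passed the test. The EOM samples of day 21 carried more signal of leukocyte genes. Their 4 measured marker genes summed to between 5223 and 21280 intensity units at day 21. The same sum lay between 3432 and 5752 at day 14 and between 4914 and 6358 at day 28. Its part in the Myh13 values was not tested.

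The step from day 14 to day 21 was -0.05 log2 units (95% interval -1.27 to 1.17; limma adjusted p = 1). The step from day 21 to day 28 was 0.28 (-0.94 to 1.5; adjusted p = 1), and that from day 28 to day 45 was -0.07 (-1.29 to 1.15; adjusted p = 0.982). Between these ages 0.6%, 0.105% and 0.21% of all probe sets changed by the test. The intervals are wide enough to hold changes of about a doubling in either direction. The slope from day 14 to day 45 was 0.006 ± 0.018 log2 units per day (95% interval -0.031 to 0.044), and 5.56% of probe sets had a slope past the test over those ages. On these 12 arrays Myh13 stood at 62.5% to 83% of the brightest probe set of its array and was never the brightest, and whether the top of the measuring range limits the later values was not tested.

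Across the whole period, Myh13 in EOM was 75.8-fold higher at day 45 than at birth (log2 difference 6.24 ± 0.60 SE; 95% interval 5.02 to 7.46; limma adjusted p = 1.82e-09), the 4th largest rise on the array. By this comparison 12.9% of probe sets rose in EOM and 16.9% had all 3 late arrays above all 3 early ones. A test over all 6 ages gave F = 37.5 in EOM (limma adjusted p = 5.18e-10), where 31.4% of probe sets passed. In leg it gave F = 0.759 (adjusted p = 0.679), where 35.9% passed.

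In leg, Myh13 showed no trend beyond the spread of the arrays. At day 7 the leg arrays read 357.6, 499.5 and 544.1 intensity units. At day 14 they read 464.7, 896.6 and 430.9, and at day 21 they read 852.9, 718.5 and 74.9. The last of these lay under the floor, far from the other arrays of its group.

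At day 28 the leg arrays read 631, 509.6 and 909.9 intensity units. At day 45 they read 409.6, 1146.7 and 103.7, so the highest and the 2nd lowest leg value of the whole series fell in 1 group. Over the 18 leg arrays the median was 482.1, and 15 of them lay above the filter level of 320.4. Within its own array the leg signal stood between the percentiles 19.3 and 68.9 of all probe sets, with a median of 48.95.

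The leg steps between neighbouring ages were 0.39, 0.30, -0.51, 0.75 and -0.86 log2 units in order of age, and none passed the test. The shares of all probe sets that passed in those steps were 0.824%, 3.9%, 0.659%, 0.15% and 1.96%. Day 45 differed from birth in leg by 0.06 log2 units (95% interval -1.16 to 1.28; limma adjusted p = 0.952), where 14.4% of probe sets rose and 18.5% fell. The change from birth to day 45 was larger in EOM than in leg by 6.19 ± 0.84 log2 units (SE; 95% interval 4.46 to 7.91; limma adjusted p = 1.95e-05), the 2nd largest such difference. In that comparison 2.25% of probe sets passed with a larger change in EOM.

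At day 7 EOM stood 5.29-fold above leg, with all 3 EOM arrays above all 3 leg arrays. The log2 difference was 2.40 ± 0.60 (SE; 95% interval 1.18 to 3.62; limma adjusted p = 0.0132), the 43rd largest of 6672 in that direction. At that age 3.33% of probe sets were higher in EOM by the test and 12.5% had EOM arrays all above leg arrays. The call was lost with the array number within each day as a block (limma adjusted p = 0.135). It was also lost without the EOM array numbered 1 (2.24; adjusted p = 0.0708), without the EOM array numbered 2 (2.27; adjusted p = 0.067) and without the leg array numbered 1 (2.22; adjusted p = 0.0753).

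From day 14 on, the gap between the muscles was among the widest on the array. At day 14 EOM was 34.4-fold above leg (log2 difference 5.10; 95% interval 3.88 to 6.32; limma adjusted p = 1.07e-06), the 3rd largest difference, where 2.61% of probe sets were higher in EOM and 12.3% had ranges apart in that direction. At day 21 it was 47.5-fold above leg in the fit (5.57; 4.35 to 6.79; limma adjusted p = 3.95e-07), with 1 leg array set to the floor, and the difference was 4.58 without that array. That was the largest difference of its age, where 3.48% of probe sets were higher by the test and 13.2% by their ranges. With only the 2 groups of day 21 in the fit, the same difference missed the threshold (adjusted p = 0.0583).

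At day 28 EOM was 34.3-fold above leg (5.10; 95% interval 3.88 to 6.32; limma adjusted p = 4.97e-07), the largest difference of that age. There, 7.63% of probe sets were higher in EOM and 15.9% had ranges apart. At day 45 it was 59.2-fold above leg (5.89; 4.67 to 7.11; limma adjusted p = 5.54e-08), the 2nd largest after Myh8, with 6.89% of probe sets higher and 11.2% with ranges apart. The day 45 difference was 4.98 without the leg array numbered 3 and 6.71 without the leg array numbered 2. These 4 intervals overlap one another, so the data do not order the later ages by the size of the gap.

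**Figure D2:**
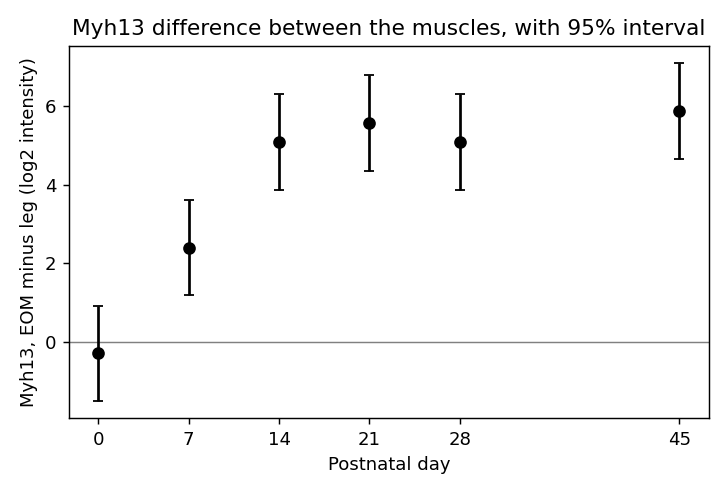
Difference in Myh13 between EOM and leg (log2 intensity) at each postnatal day, with the 95% interval of the fit over all 36 arrays and 3 arrays per group. The interval spans 0 at birth (-1.52 to 0.92) and lies above 0 at the other 5 ages, from 2.40 at day 7 to 5.89 at day 45.

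Ordered by mean log2 intensity, EOM at day 28 was first at 14.47 ± 0.26 (SD, n = 3). EOM at day 45 followed at 14.40 ± 0.61, then day 14 at 14.24 ± 0.22 and day 21 at 14.20 ± 0.16, and each of these 4 overlapped its neighbour in the order. EOM at day 7 stood alone at 11.25 ± 0.51, with no overlap on either side. Below it came leg at day 28 (9.37 ± 0.42), day 14 (9.14 ± 0.58), day 7 (8.84 ± 0.32), day 21 (8.63 ± 1.71), day 45 (8.51 ± 1.74) and day 0 (8.45 ± 0.17), and last EOM at day 0 (8.16 ± 0.58). Each of these 7 overlapped the next, so the 12 groups form 3 levels that the arrays separate.

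The replicate spread of Myh13 was not even. Over the 6 EOM groups the pooled SD was 0.43 log2 units, close to the median of 0.40 over all tested probe sets. Over the 6 leg groups it was 1.05, against a median of 0.39. Leg at days 21 and 45 had SDs at the percentiles 99.8 and 99.7 of all probe sets in those groups, and in both the array numbered 3 was the low one. In EOM the widest groups were day 45 (0.61), day 0 (0.58) and day 7 (0.51), and the narrowest was day 21 (0.16).

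Over all 12 groups the pooled SD was 0.80, at percentile 93.5 of tested probe sets, where the median was 0.41. The SE of 0.60 behind every difference between groups above therefore carries the spread of the leg arrays as well. The array numbered 3 was the lowest of its group in 4 of 12 groups and the highest in 6, and the array numbered 2 was the lowest in 5 and the highest in 2. No array number was low or high throughout.

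**Figure D3:**
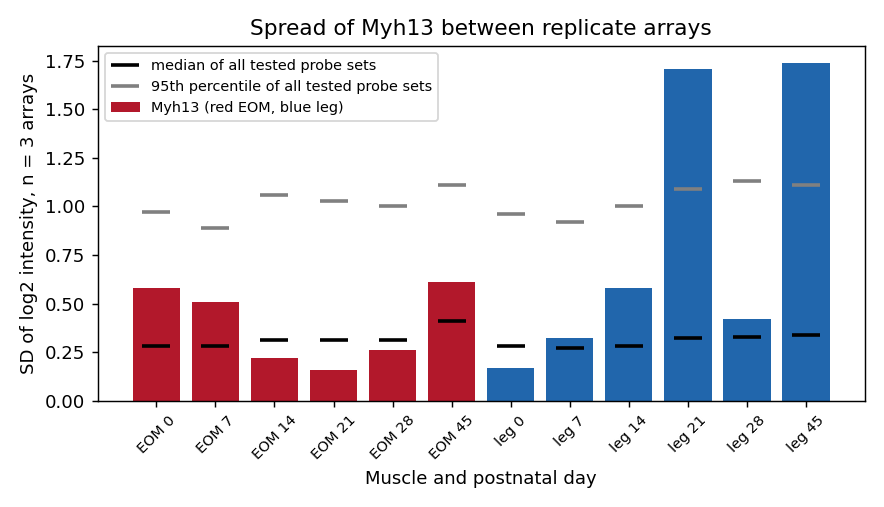
SD of Myh13 log2 intensity over the 3 arrays of each group, red for EOM and blue for leg, with the median (black line) and the 95th percentile (grey line) over all tested probe sets of that group. Leg at days 21 and 45 stands at 1.71 and 1.74, and the other 10 groups lie between 0.16 and 0.61.

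Of the adult fast myosins of the same cluster, Myh2 and Myh4 rose in both muscles. Myh2 in EOM read between 488.1 and 1171.1 intensity units at birth and between 19418.4 and 22187.5 at day 14, a change of 4.98 log2 units, and in leg it changed by 5.45. Its slope over days 0 to 14 in EOM was 0.36 ± 0.02 log2 units per day (limma adjusted p = 1.78e-14), and that in leg was 0.39 ± 0.02. Myh2 did not pass the test between EOM and leg at any of the 6 ages, with differences from -0.67 to 0.01.

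Myh4, like Myh13, rose steeply in EOM, and it rose in leg as well. In EOM it changed from birth by 2.48 log2 units at day 7 and 6.06 at day 14, with a slope of 0.43 ± 0.03 log2 units per day (limma adjusted p = 2.46e-13). In leg it changed by 3.45 at day 7 and 4.34 at day 14. Myh4 was lower in EOM than in leg at birth (-1.87 ± 0.37; adjusted p = 0.00106) and at day 7 (-2.84 ± 0.37; adjusted p = 5.04e-06), when its EOM arrays read 1503.9 to 1916 and its leg arrays 11558.3 to 13647.5. At birth the ranges overlapped, with EOM arrays at 145.1 to 818.4 and leg arrays at 703.3 to 1626.7. From day 14 on its differences lay between -0.55 and -0.15 and none passed. Of all probe sets, 2.4% were lower in EOM by the test at birth and 1.65% at day 7.

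A further probe set, annotated jointly to Myh2, Myh1 and Myh8, rose by 6.16 log2 units by day 14 in EOM and was lower in EOM than in leg at day 7 (-1.71 ± 0.19; limma adjusted p = 3.04e-07). At day 7, then, Myh13 was higher in EOM than in leg while Myh4 and this shared probe set were lower. Myh1 alone, on a dimmer probe set, differed between the muscles only at day 45 (-1.11 ± 0.34; adjusted p = 0.0308). Its mean did not show the early rise of Myh2 and Myh4. From birth it changed by -0.52 log2 units in EOM and -0.82 in leg at day 14, and by -0.49 and 0.88 at day 45.

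The developmental myosins of the cluster, each by its brightest probe set, fell in leg by day 45 and did not pass the test between birth and day 45 in EOM. Myh8, the neonatal chain, read 18090.5 to 22871.8 intensity units in leg at birth and 88.7 to 170.4 at day 45, a change of -7.19 ± 0.29 log2 units (limma adjusted p = 3.85e-18). In EOM it read 8601.9 to 13127.9 at birth and 9016.8 to 10816.5 at day 45, a difference of -0.07 (95% interval -0.65 to 0.52). The EOM level of Myh8 at day 45 exceeded that in leg 67.7-fold in the fit (6.08 ± 0.29; adjusted p = 8.72e-16), with 1 leg array set to the floor.

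Myh3, the embryonic chain, changed by -3.05 ± 0.39 log2 units in leg from birth to day 45 (limma adjusted p = 3e-07) and by 0.33 in EOM (adjusted p = 0.567). It was higher in EOM at days 28 (2.06 ± 0.39; adjusted p = 0.000435) and 45 (3.54 ± 0.39; adjusted p = 2.17e-07). Its 5 probe sets disagree, with EOM-leg differences at day 45 from -2.29 to 4.69, and those given are from the brightest. One of the others, X04267_at, rose in leg from birth to day 45 by 5.79 ± 1.63 (adjusted p = 0.00617), against a change of 3.77 ± 1.63 in EOM (adjusted p = 0.0783). Between birth and day 45, then, Myh13 passed the test in EOM (upward) and not in leg, and Myh8 passed it in leg (downward) and not in EOM.

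**Figure D4:**
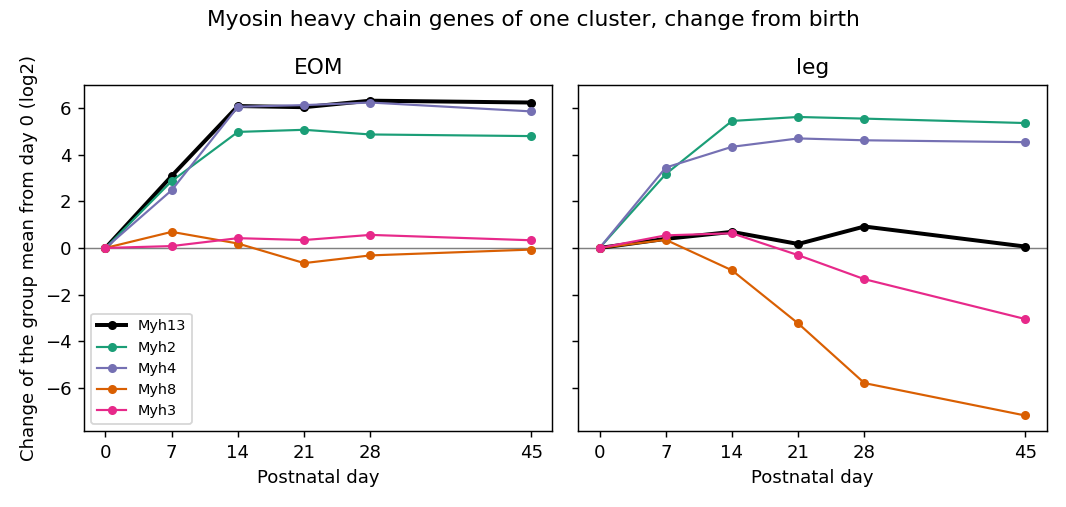
Change of the group mean from day 0 (log2 units) against postnatal day for 5 myosin heavy chain genes of the cluster, EOM on the left and leg on the right, each point a mean of 3 arrays. In EOM Myh13 (black) tracks Myh4 (6.09 and 6.06 at day 14), while in leg Myh13 stays between 0 and 0.92 and Myh8 falls to -7.19.

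Of 14 myosin heavy chain genes listed besides Myh13, 8 were measured and tested. From birth to day 45 in order of age, 1, 0, 0, 1, 2 and 3 of them were higher in EOM and 3, 3, 1, 0, 1 and 2 lower. The shares of all probe sets that were higher in EOM were 3.93%, 3.33%, 2.61%, 3.48%, 7.63% and 6.89% in the same order. Those that were lower were 2.4%, 1.65%, 2.31%, 0.555%, 4.18% and 3.69%. The list's median difference ran from -0.50 at day 7 to 0.06 at day 28, while the median over all tested probe sets ran from 0.01 to 0.08. Myh6, a cardiac chain also used in some extraocular fibres, was lower in EOM at 5 of 6 ages on its brightest probe set, by -1.17 ± 0.32 at day 45 (limma adjusted p = 0.016). A dimmer Myh6 probe set had mean log2 values in EOM and leg of 9.57 and 9.34 at birth and 9.65 and 11.51 at day 45. Another had 10.25 and 12.07 at birth and 11.97 and 13.93 at day 45. Whether the Myh6 probe sets also read other myosins was not examined. Myh7, the slow chain, was lower at day 7 (-0.71 ± 0.21; adjusted p = 0.0486) and did not differ by the test at day 45 (0.00; adjusted p = 1), whereas a dimmer Myh7 probe set was lower at day 45 (-1.88 ± 0.28; adjusted p = 3.13e-05). Myh11, the smooth muscle chain, was higher at day 0 (1.67 ± 0.41; adjusted p = 0.00881) and day 45 (1.74 ± 0.41; adjusted p = 0.00515). The dimmer Myh11 probe set gave 0.14 ± 0.49 (adjusted p = 0.962) and -0.08 ± 0.49 (adjusted p = 0.963) at those ages.

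Partners of the thick filament were measured for 10 of 17 listed genes. In order of age 0, 0, 1, 0, 0 and 1 were higher in EOM and 4, 3, 1, 0, 4 and 4 lower. Of all probe sets, 3.93%, 3.33%, 2.61%, 3.48%, 7.63% and 6.89% were higher and 2.4%, 1.65%, 2.31%, 0.555%, 4.18% and 3.69% lower at these ages. At day 45 their median difference was -0.70, against 0.01 over all tested probe sets. Myl6b, an alkali light chain, was the 1 member that was higher at day 45 (1.61 ± 0.50; limma adjusted p = 0.0361). Mylk2, the kinase of the regulatory light chain, was lower (-1.18 ± 0.30; adjusted p = 0.00867), as were the slow light chain Myl3 (-1.12 ± 0.29; adjusted p = 0.0106) and the binding protein Mybph (-0.86 ± 0.26; adjusted p = 0.0276).

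Muscle transcription factors were tested for 5 of 24 listed genes, and none of the 5 was higher in EOM at any age. Among all probe sets between 2.61% and 7.63% were higher at each age, so none of 5 genes lies near that share. At days 0 to 21 between 0.555% and 2.4% of all probe sets were lower. None passed at days 0 to 21, 2 were lower at day 28, as were 4.18% of all probe sets, and 3 at day 45, as were 3.69%. At day 45 Myog, which drives differentiation of muscle cells, was lower by -1.67 ± 0.31 log2 units (limma adjusted p = 0.000413), Myod1, the myogenic determination factor, by -0.92 ± 0.26 (adjusted p = 0.0201) and Mef2d by -0.78 ± 0.25 (adjusted p = 0.0401). The list's median at day 45 was -0.78, against 0.01 over all tested probe sets.

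Genes of the neuromuscular junction were tested for 14 of 16 listed members. In order of age 1, 0, 1, 4, 6 and 6 were higher in EOM and 2, 1, 0, 0, 0 and 0 lower. Beside them, 3.93%, 3.33%, 2.61%, 3.48%, 7.63% and 6.89% of all probe sets were higher and 2.4%, 1.65%, 2.31%, 0.555%, 4.18% and 3.69% lower. At day 45 the acetylcholine receptor subunits Chrna1 (1.39 ± 0.18; limma adjusted p = 3.76e-06), Chrne (1.35 ± 0.24; adjusted p = 0.000275), Chrnd (1.15 ± 0.18; adjusted p = 5.7e-05) and Chrnb1 (0.83 ± 0.21; adjusted p = 0.00963) were higher. The list's median at day 45 was 0.46, against 0.01 over all tested probe sets. Markers of Schwann cells and axons were also higher in EOM for 4 to 6 of 8 tested genes at every age. Their summed intensity in leg fell from 19330 to 23730 at birth to 6902 to 13040 at day 45, against 23400 to 36850 in EOM at day 45, and their part in these differences was not tested. Over the 6 ages, 21 junction calls (14 genes tested), 18 thick filament calls (10), 17 myosin calls (8) and 5 transcription factor calls (5) were made. Scaling to the skeletal muscle markers left 0, 2, 5 and 0. Calls over all probe sets fell under that scaling too, from 262 higher and 160 lower to 94 and 9 at birth. At day 45 they fell from 460 and 246 to 37 and 8, so the loss was not particular to these lists.

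Among 3888 other genes, likeness to Myh13 was measured as Pearson's r between the 12 group means, which share arrays and scaling and are given without a test. The median r was 0, and 11 genes reached 0.9. The 6 highest were Ech1 (0.95), Prune2 (0.95), Rab15 (0.94), Gnb5 (0.94), Hif1a (0.93) and Pcsk6 (0.92). Ech1 encodes an enzyme of fatty acid oxidation, Rab15 a small GTPase of endosomes, Gnb5 a G protein beta subunit, Hif1a the oxygen-regulated transcription factor and Pcsk6 a proprotein convertase. With the arrays numbered 3 left out, 3 of the 6 remained among the 6 highest.

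These genes moved far less than Myh13. They were chosen for a course like that of Myh13 on these same arrays, so a difference between the muscles largely follows from the choice. Prune2 was higher in EOM by 3.15 ± 0.48 log2 units at day 45 (limma adjusted p = 3.6e-05), and already by 2.16 ± 0.48 at day 7 (adjusted p = 0.00428). Ech1 was higher by 1.10 ± 0.20 at day 14 (adjusted p = 0.00071) and 0.96 ± 0.20 at day 45 (adjusted p = 0.00166), and Hif1a by 1.59 ± 0.25 at day 45 (adjusted p = 4.69e-05). Rab15 was higher at day 14 (2.44 ± 0.58; adjusted p = 0.00961) and day 45 (2.36 ± 0.58; adjusted p = 0.00734). In leg, Prune2 was at the floor on 2 arrays at day 7 and 1 at day 45, and Rab15 on 2 at day 14. The sizes of the differences at those ages therefore rest partly on the floor. Pcsk6 was higher at day 45 (1.39 ± 0.31; adjusted p = 0.0037), and Gnb5 did not pass there (1.16 ± 0.40; adjusted p = 0.0594).

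The genes with the most opposite course were Mllt3 (r = -0.96), Camk2d (-0.92) and Kctd15 (-0.91). Mllt3 encodes a subunit of a transcription elongation complex and was lower in EOM by -1.94 ± 0.35 log2 units at day 45 (limma adjusted p = 0.000265). Camk2d, a calcium and calmodulin dependent kinase, was lower by -0.90 ± 0.23 (adjusted p = 0.0084), and Kctd15 by -0.64 ± 0.21 (adjusted p = 0.0428). Each also fell in EOM from birth to day 45, as did 18.4% of all probe sets. These genes too were chosen by their course on the same arrays, so the tests only describe them.

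Within the 18 EOM arrays alone, likeness picked other genes. The 5 highest were Fabp3, Myh4, Ckmt2 and Acadm, each at r = 0.97, and Myh2 at 0.96, and 67 genes reached 0.9. None of the 5 was among the 6 highest over the 12 groups. Fabp3 carries fatty acids in muscle, Ckmt2 is the mitochondrial creatine kinase of muscle and Acadm begins the oxidation of medium-chain fatty acids. All of them also rose in leg between birth and day 45, Fabp3 by 2.26, Ckmt2 by 2.10 and Acadm by 2.45 log2 units, each past the test. Over the 12 groups the cluster's own myosins had lower r, 0.47 for Myh3, 0.38 for Myh2, 0.35 for Myh4, 0.26 for Myh8 and -0.05 for Myh1.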

How the data were processed

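The deposited table gives 1 linear intensity per probe set and array. The authors had already scaled it: the mean between the 2nd and 98th percentiles was 1501.1 to 1502.3 on every array. The summarising software is not given in these sources. Deposited intensity values were floored at the 20th percentile (100.9; 6.66 on the log2 scale) and turned to log2. The 59 control probe sets were left out, and 6672 of 8799 probe sets were tested, those above the 40th percentile (320.4) on at least 3 of 36 arrays. One limma model (limma 3.58.1, R 4.3.3) took the 12 groups together (trended prior, 24 residual and 5.84 prior degrees of freedom), and p-values were adjusted by Benjamini-Hochberg within each comparison over all tested probe sets, at a threshold of 0.05. The code was tested on simulated data. Figures used matplotlib 3.10.9 in python 3.11.15. Precision is limited by having 3 arrays a group.

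The platform annotation names 1 gene for 7006 probe sets, several for 308, and leaves 1426 unnamed. Of several probe sets for a gene, the one with the highest mean stood for it. Its gene identifier for Myh13 is absent from the RefSeq table, so Myh13 was matched by symbol. Probe sequences were not used here, so cross-hybridisation to other myosins was not examined. Named are Myh13, every measured sarcomeric myosin heavy chain, up to 4 genes of each other list past the threshold with the largest differences at day 45, and the genes most like Myh13 (6 highest and 3 lowest over group means, 5 highest over EOM arrays). The gene, the lists and the tests were chosen with earlier results of these data known.

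The array numbers come from the labels and were checked for pairing by correlating how arrays deviate from their group means. Same-numbered EOM and leg arrays correlated at 0.131 to 0.296 at day 7, 0.106 to 0.165 at day 14 and 0.101 to 0.369 at day 21, all over 0.1. At days 0, 28 and 45 not every pair did. The main fit has no block. Alternatives covered scaling, floor, filter, variance prior, block, the groups fitted and each array left out.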

Additional observations from a re-analysis of the deposited data

Results flagged for a closer look

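The change of Myh13 from birth to day 45 differed between the muscles, with a difference of changes of 6.19 log2 units by a test of that difference. Its slope over days 0 to 14 also differed, by 0.386 log2 units per day. All 3 EOM arrays of day 45 lay above all 3 of birth, whereas the leg arrays of these ages overlapped.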

How the results depend on the processing

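The Myh13 differences between EOM and leg at days 14, 28 and 45, its EOM changes from day 7 to day 14 and from birth to day 45, its EOM slope over days 0 to 14 and both differences between the muscles kept direction and call under all 13 alternatives (12 for results within 1 muscle or between changes, where the block within day could not be fitted) and with each array left out. For day 45 the gap to leg ran from 4.63 to 6.14, and 4.98 to 6.71 with single arrays left out. With the replicate block by number within day, the day 7 gap of 2.40 lost its call, and no other Myh13 call changed under either block. With only the groups compared in the fit, the day 21 gap of 5.57 lost its call. Leaving out single arrays gave 2.22 to 2.70 for the day 7 gap.

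Scaling to skeletal muscle markers rests on genes listed near 0 on some arrays, the array medians of these markers running from 10.53 to 14.83, and it shifted the median of all genes by up to 0.873. Under it the rise of Myh13 from birth to day 7 in EOM was 2.78 (adjusted p = 0.0742), the gap at birth was 0.31, and the later EOM steps were 0.99, -0.73 and 0.25. Scaling to the median gave 0.01 for the EOM step from day 14 to day 21 and shifted all genes by -0.124 at birth and -0.13 at day 21. Calls higher and lower in EOM were then 199 and 203 at birth, 130 and 57 at day 21 and 385 and 317 at day 28, against 262 and 160, 232 and 37 and 509 and 279 with the deposited scaling. Under marker scaling they were 94 and 9 at birth, 48 and 5 at day 7, 9 and 15 at day 14, 112 and 4 at day 21, and 37 and 8 at day 45, against 222 and 110 at day 7, 174 and 154 at day 14 and 460 and 246 at day 45.

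Several differences and slopes that never passed the test changed sign. The leg step to day 7 (0.3 to 0.46) and the leg slope over days 0 to 14 (0.044 to 0.067) kept theirs under all 12 alternatives. With single arrays left out these ran from 0.27 to 0.57 and from 0.025 to 0.063. Without all arrays numbered 3, an alternative chosen after seeing the data, the leg steps from day 14 were 0.28, -0.47 and 0.27 and the late EOM slope was -0.004. Leaving out single arrays, the gap at birth ran from -0.49 to 0.03, the EOM step to day 21 from -0.17 to 0.05, that to day 45 from -0.42 to 0.12 and the late EOM slope from -0.006 to 0.013. In leg the steps ran from -0.04 to 0.49 (to day 14), -1.07 to 0.47 (to day 21), -0.24 to 1.3 (to day 28) and -1.69 to 0.05 (to day 45), the whole change from -0.77 to 0.97 and the late slope from -0.043 to 0.016.

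Over the 6 ages, 17 calls were made between EOM and leg for myosin heavy chains, 18 for thick filament partners, 5 for transcription factors and 21 for the neuromuscular junction. These became 5, 2, 0 and 0 under marker scaling and 10, 9, 3 and 11 with only the groups compared. Calls among all probe sets also fell under marker scaling, as given above. The transcription factor calls were 3 without a trend and 3 without arrays numbered 3, and ran from 2 to 6 with single arrays left out. Over all these settings the calls among all probe sets ran from 103 to 511 at birth (422 as reported), 53 to 382 at day 7 (332), 24 to 424 at day 14 (328), 22 to 356 at day 21 (269), 45 to 914 at day 28 (788) and 45 to 874 at day 45 (706). In EOM they ran from 8 to 193 for day 7 against birth (125), 45 to 540 for day 14 against day 7 (415) and 292 to 2268 for day 45 against birth (2090). In leg they ran from 284 to 2399 for day 45 against birth (2190), and for the difference of changes from 16 to 333 (247). The causes were not tested. The brightness of late EOM values and the floor in leg limit what can be read at both ends.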
